A study of Mus musculus with 4 samples.

Results

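The genes described here are 7 genes of B-lineage commitment and of the pre-B cell receptor: Vpreb1, Igll1, Cd79a, Cd79b, Blnk, Ebf1 and Pax5. They were chosen by name, and all 7 were found among the 19938 genes with a probe set of their own on the arrays, each with 1 probe set. Expression was measured on 4 Affymetrix arrays in LSK cells sorted from mouse bone marrow. LSK cells lack lineage markers, carry Sca-1 and Kit, and include blood stem cells and early progenitors. Hdac3-null LSK/Flt3- cells (2 arrays) came from mice with Vav-Cre, a floxed and a minus allele of Hdac3, a histone deacetylase of corepressor complexes. Vav-Cre is driven by the Vav promoter, which is active throughout the blood lineages. Wild-type cells were sorted as LSK/Flt3+ and as LSK/Flt3-, with 1 array each, and are called wild-type Flt3+ and wild-type Flt3- cells here. All mice were of the C57BL/6 background. Flt3, a cytokine receptor, marks LSK cells with more lymphoid potential. Each array held a pool of 5 to 30 mice. Neither ages nor whether the wild-type mice carried Vav-Cre are stated.

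B-cell development begins when Ebf1 and then Pax5, both transcription factors, switch on B-lineage genes and close off other fates. The pro-B cell then makes the surrogate light chain, a pair of proteins encoded by Vpreb1 and Igll1, which joins the immunoglobulin heavy chain to form the pre-B cell receptor. The receptor signals through the membrane proteins CD79a and CD79b to the kinase Syk and the adaptor encoded by Blnk. LSK cells lie upstream of all of these steps, and low transcription of some lymphoid genes in them is known as lymphoid priming.

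Levels are the deposited log2 values, in which a difference of 1 is 2-fold. The median of all probe sets was 5.60 and 5.30 on the null arrays, 5.36 in wild-type Flt3+ and 5.32 in wild-type Flt3- cells, so each member is also given as its level minus the lower quartile of the single-gene probe sets on that array. Kit lay between 10.11 and 10.77 on the 4 arrays, and the neutrophil gene Ly6g between 3.71 and 4.24, while Ly6a, which encodes Sca-1, was not analysed here. Hdac3 itself was measured at 5.71 and 5.04 on the null arrays, 6.33 in wild-type Flt3+ and 6.18 in wild-type Flt3- cells, and whether its probes lie in the deleted part is not given. Xist, the RNA of the inactive X chromosome in female cells, was at 10.84 and 9.67 on the null arrays, 3.90 in wild-type Flt3+ and 4.23 in wild-type Flt3- cells. This sex-linked RNA was thus high on both null arrays and low on both wild-type arrays. A difference of sex and one of genotype therefore cannot be told apart in any null against wild-type comparison, and neither was tested alone. Nothing says that the null replicates came from separate mice, so p-values cover only the spread between these samples, possibly a technical one. The number of arrays limits the precision.

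Of the 7 genes, only Vpreb1 was at least 2-fold lower on both Hdac3-null arrays than on both wild-type arrays. Its null mean was 2.53-fold lower than in wild-type Flt3- and 2.51-fold lower than in wild-type Flt3+ cells. Neither difference passed the test over all genes. Its neighbour Igll1 was within 1.34-fold of both wild-type levels. Blnk was 2.76-fold lower than in wild-type Flt3+ cells (limma, adjusted p = 0.115), a difference that passed under some alternatives. It was 1.40-fold lower than in wild-type Flt3- cells. Igll1, Blnk, Ebf1 and Pax5 had their highest level in wild-type Flt3+ cells. Cd79a lay below the lower quartile on all 4 arrays. The null replicates differed by more than the wild-type fractions for Vpreb1, Igll1, Cd79a and Cd79b, with the widest null gap for Cd79b (-0.71, replicate 1 minus replicate 2).

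Vpreb1 and Igll1 lie next to each other on mouse chromosome 16, with 0 annotated genes between them. Their promoters are shown because these neighbours differed unequally between null and wild-type cells, and that of Blnk because this gene had the widest range over the 4 arrays. The windows of 300 bases span the start of each gene and are written 5′ to 3′ on the minus strand for all 3 (RefSeq, GRCm38.p6), at chr16:16869206-16869505, chr16:16863936-16864235 and chr19:40994172-40994471. Capitals mark matches to CAGNTG on either strand, an E-box of the kind bound by E proteins such as the Tcf3 product.
Vpreb1: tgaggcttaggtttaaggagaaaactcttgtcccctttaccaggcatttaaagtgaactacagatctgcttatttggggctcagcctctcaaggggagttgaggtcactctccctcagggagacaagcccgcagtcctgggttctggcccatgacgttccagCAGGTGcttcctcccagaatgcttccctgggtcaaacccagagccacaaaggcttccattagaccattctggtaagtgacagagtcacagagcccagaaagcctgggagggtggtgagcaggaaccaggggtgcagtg
Igll1: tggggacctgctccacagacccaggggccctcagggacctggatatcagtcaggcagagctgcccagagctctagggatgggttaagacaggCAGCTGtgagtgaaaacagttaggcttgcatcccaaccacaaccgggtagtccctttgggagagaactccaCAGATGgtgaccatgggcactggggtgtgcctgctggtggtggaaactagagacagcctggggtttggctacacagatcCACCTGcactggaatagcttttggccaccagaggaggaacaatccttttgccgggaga
Blnk: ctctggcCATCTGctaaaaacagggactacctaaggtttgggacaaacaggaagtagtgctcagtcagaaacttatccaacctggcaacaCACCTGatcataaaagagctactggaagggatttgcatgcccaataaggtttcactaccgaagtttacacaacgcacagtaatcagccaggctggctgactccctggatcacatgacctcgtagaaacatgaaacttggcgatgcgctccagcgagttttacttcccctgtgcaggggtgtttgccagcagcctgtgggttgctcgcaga
The Vpreb1 window held 1 match, that of Igll1 3 and that of Blnk 2. CAGNTG was found in 51.4% of the 32851 promoter windows of this length, so such matches are common. The Ikaros core TGGGAA, present in 25.6% of all windows, was found in none of these 3 on either strand, which says only that these letters are not in them.

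Vpreb1, which encodes the variable-like part of the surrogate light chain, was at 6.59 and 7.02 (log2) on null arrays 1 and 2, 8.13 in wild-type Flt3+ and 8.15 in wild-type Flt3- cells. Both null arrays were below both wild-type arrays, by more than the gap of 0.43 between the null replicates. The null mean differed from wild-type Flt3- cells by a log2 difference of -1.34 ± 0.37 (SE; limma, unadjusted p = 0.00501, adjusted p = 0.986, 95% interval -2.18 to -0.51). The difference from wild-type Flt3+ cells was -1.33 ± 0.37 (SE; limma, unadjusted p = 0.00532, adjusted p = 0.459, 95% interval -2.16 to -0.49). Over all genes, 0.321% had a null minus wild-type Flt3- difference as low as or lower than that of Vpreb1. In bulk samples of sorted cells, fewer cells that transcribe a gene and less of its RNA per cell cannot be told apart.

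Against the array's lower quartile, Vpreb1 lay 1.94 and 2.63 above it on the null arrays, 3.68 above it in wild-type Flt3+ and 3.77 above it in wild-type Flt3- cells. The null arrays therefore stayed above the quartile while lying below both wild-type arrays on this scale too. Vpreb1 was the 1 member that both null arrays held at least 2-fold below both wild-type arrays, a pattern shared by 41 of all genes (0.206%). Between the wild-type arrays its difference, LSK/Flt3+ minus LSK/Flt3-, was -0.01, and 4.43% of all genes were as close or closer.

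Igll1, also known as lambda5, encodes the constant-like part of the surrogate light chain. Its levels were 6.74 and 6.43 on null arrays 1 and 2, 7.0 in wild-type Flt3+ and 6.73 in wild-type Flt3- cells. Null replicate 1 and wild-type Flt3- cells were nearly level, and the wild-type Flt3+ array was the highest. The log2 difference was -0.15 ± 0.36 from wild-type Flt3- (SE; limma, adjusted p = 1, 95% interval -0.94 to 0.65) and -0.42 ± 0.36 from wild-type Flt3+ cells (SE; limma, adjusted p = 1, 95% interval -1.22 to 0.38). These intervals include a 2-fold difference only against wild-type Flt3+ cells. Whether the differences of Vpreb1 and Igll1 themselves differ was not tested. Igll1 lay 2.09 and 2.04 above the lower quartile on the null arrays, 2.56 in wild-type Flt3+ and 2.36 in wild-type Flt3- cells, which puts both null arrays below both wild-type arrays once the array's position is subtracted.

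Vpreb2, a near-identical copy of Vpreb1 with which it can share probe signal, had levels of 4.68 and 5.60 on the null arrays, 5.59 in wild-type Flt3+ and 5.69 in wild-type Flt3- cells. Null replicate 1 was the low one, and null replicate 2 lay between the wild-type arrays. Its log2 difference from wild-type Flt3- cells was -0.55 ± 0.40 (SE; limma, adjusted p = 1). How much of either signal comes from the other gene is uncertain.

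**Figure D1:**
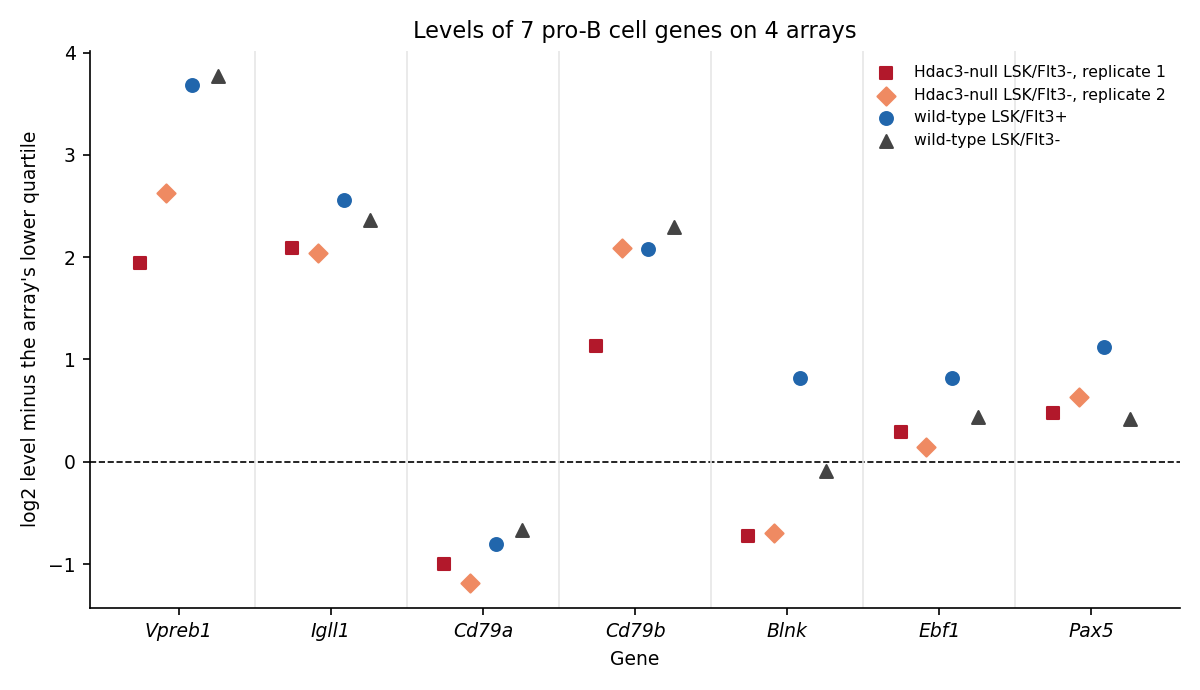
Log2 level of each of the 7 genes minus the lower quartile of single-gene probe sets on the same array (vertical axis, dashed line at 0), with 1 point for each of the 4 arrays and genes along the horizontal axis. Vpreb1 is lower on both null arrays (1.94 and 2.63) than on the wild-type arrays (3.68 and 3.77), and Blnk is above the line only in wild-type Flt3+ cells. Heights of different genes are not comparable, because each probe set has its own response.

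Cd79a encodes the Ig-alpha chain, 1 of the 2 signalling chains of the B cell receptor. It had levels of 3.65 and 3.21 on null arrays 1 and 2, 3.65 in wild-type Flt3+ and 3.71 in wild-type Flt3- cells. All 4 values were below the array's lower quartile, by 1.00, 1.18, 0.80 and 0.67 in the same order, and null replicate 1 overlapped the wild-type values. Of all genes, 20.2% were below the lower quartile on every array. Its difference was -0.28 ± 0.30 from wild-type Flt3- cells (SE; limma, adjusted p = 1), being -0.06 on null replicate 1 and -0.50 on replicate 2. From wild-type Flt3+ cells it was -0.22 ± 0.30 (SE; limma, adjusted p = 1), being 0.0 on null replicate 1 and -0.44 on replicate 2.

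Cd79b encodes the partner chain, Ig-beta. Its levels were 5.77 and 6.48 on null arrays 1 and 2, 6.53 in wild-type Flt3+ and 6.66 in wild-type Flt3- cells. Null replicate 1 was the low array, and null replicate 2 lay within 0.05 of wild-type Flt3+ cells. The gap between the null replicates, -0.71 for replicate 1 minus replicate 2, was matched or exceeded in size by 9.73% of all genes. The difference from wild-type Flt3- cells was -0.54 ± 0.39 (SE; limma, adjusted p = 1), being -0.89 on null replicate 1 and -0.18 on replicate 2. From wild-type Flt3+ cells it was -0.40 ± 0.39 (SE; limma, adjusted p = 1), being -0.76 on null replicate 1 and -0.05 on replicate 2.

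Blnk, the adaptor that links Syk to downstream enzymes of the pre-B cell receptor, had levels of 3.92 and 3.69 on null arrays 1 and 2, 5.27 in wild-type Flt3+ and 4.29 in wild-type Flt3- cells. The wild-type Flt3+ array was the highest and both null arrays were the lowest. The measured null mean was 2.76-fold lower than wild-type Flt3+ cells, a log2 difference of -1.47 ± 0.29 (SE; limma, unadjusted p = 0.000555, adjusted p = 0.115, 95% interval -2.12 to -0.81). With each array centred on its median this difference passed the threshold (-1.50, adjusted p = 0.0116), as it did after cyclic loess (adjusted p = 0.0211), after quantile normalization (adjusted p = 0.0489) and with robust estimation of the spread (adjusted p = 0.0428). That comparison holds the difference of sorted fraction as well as of genotype. From wild-type Flt3- cells, the same fraction, the difference was -0.48 ± 0.29 (SE; limma, adjusted p = 1, 95% interval -1.14 to 0.17). Blnk lay 0.73 and 0.70 below the lower quartile on the null arrays, 0.82 above it in wild-type Flt3+ and 0.09 below it in wild-type Flt3- cells. The null levels may therefore be background, with no detection call to set a bound, and the fold is that of the measured values only.

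Ebf1, the transcription factor that starts the B-lineage programme, had levels of 4.93 and 4.53 on null arrays 1 and 2, 5.26 in wild-type Flt3+ and 4.82 in wild-type Flt3- cells. The null arrays lay on either side of wild-type Flt3- cells and below LSK/Flt3+ cells. Its difference was -0.08 ± 0.32 from wild-type Flt3- (SE; limma, adjusted p = 1, 95% interval -0.80 to 0.63) and -0.53 ± 0.32 from wild-type Flt3+ cells (SE; limma, adjusted p = 1, 95% interval -1.25 to 0.18). Ebf1 lay within 0.82 of the lower quartile on all 4 arrays, at 0.29 and 0.14 on the null arrays, 0.82 in wild-type Flt3+ and 0.44 in wild-type Flt3- cells.

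Pax5, which holds cells in the B lineage, had levels of 5.13 and 5.02 on null arrays 1 and 2, 5.57 in wild-type Flt3+ and 4.79 in wild-type Flt3- cells. It was the member whose null mean lay above wild-type Flt3- cells, by 0.28 ± 0.31 (SE; limma, adjusted p = 1, 95% interval -0.41 to 0.97). From wild-type Flt3+ cells it differed by -0.50 ± 0.31 (SE; limma, adjusted p = 1, 95% interval -1.19 to 0.19). The level over the lower quartile was 0.48 and 0.63 on the null arrays, 1.12 in wild-type Flt3+ and 0.42 in wild-type Flt3- cells, so the null arrays were close to wild-type Flt3- cells on this scale.

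**Figure D2:**
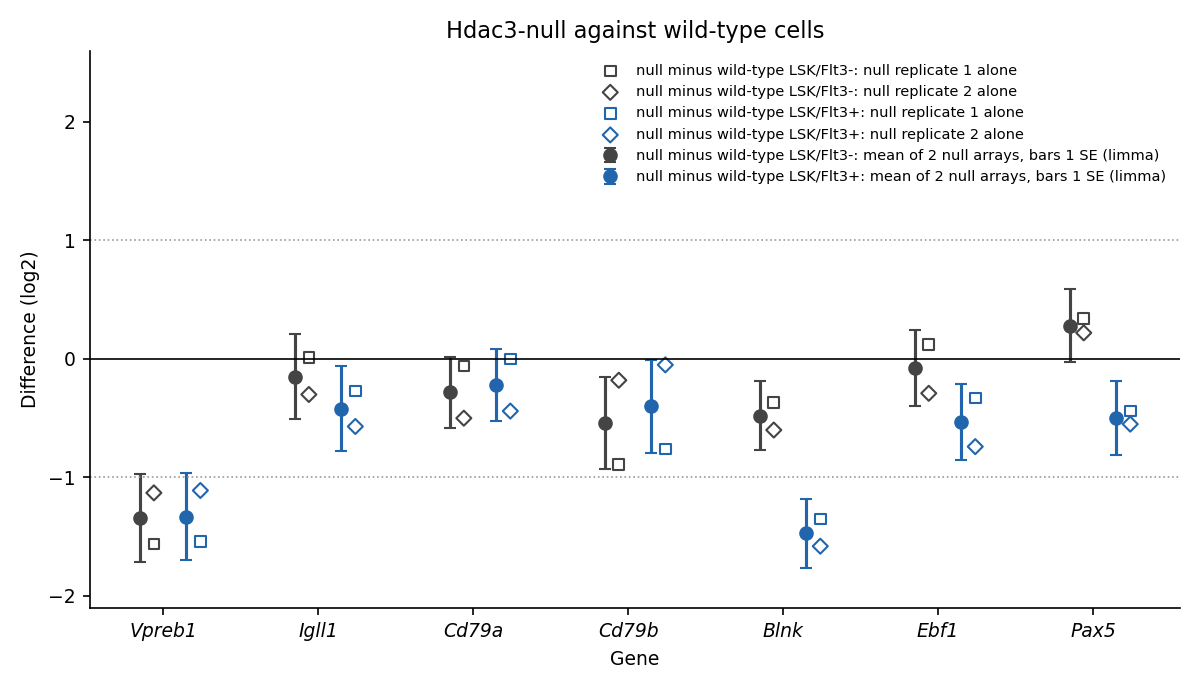
Log2 difference between Hdac3-null cells and each wild-type array (vertical axis) for the 7 genes (horizontal axis). Filled points are the mean of the 2 null arrays with bars of 1 SE from limma, open squares and diamonds are null replicates 1 and 2 alone, and dotted lines mark 2-fold. Vpreb1 is below the lower dotted line on both null arrays against either wild-type array, and Blnk only against wild-type Flt3+ cells (-1.35 and -1.58).

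Counted over the members, 0 of 7 passed limma over all genes in null against wild-type Flt3- cells, where 0 of all genes were called lower and 4 higher (0.0201%). Xist was among the genes called higher (limma, adjusted p = 0.00362). At an unadjusted p under 0.05 there was 1 member lower, Vpreb1, and 0 higher, beside 259 of all genes lower (1.3%) and 219 higher (1.1%). By size, the same 1 member lay 2-fold or more below wild type on both null arrays, beside 76 of all genes (0.381%), and 0 lay 2-fold or more above, beside 0.251%. The mean difference was below 0 for 6 of 7 members, beside 34.9% of all genes, and the median over the members was -0.28, beside 0.09 over all genes.

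Against wild-type Flt3+ cells 0 of 7 passed limma, beside 56 of all genes called lower (0.281%) and 7 called higher (0.0351%). The genes called higher again included Xist (limma, adjusted p = 0.000515). Both Vpreb1 and Blnk were lower at an unadjusted p under 0.05, beside 2.31% of all genes, and both lay 2-fold or more below wild type on both null arrays, beside 1.08% of all genes. None lay 2-fold or more above, beside 0.261%. All 7 mean differences were below 0, beside 43.1% of all genes, with a median of -0.50 beside 0.05. This comparison uses the same null arrays as the first, so their results are not independent.

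Both null arrays lay below both wild-type arrays for 3 of 7 members in the deposited values (Vpreb1, Blnk and Cd79b), beside 11.7% of all genes, and above both for 0 members, beside 23% of all genes. After subtraction of each array's lower quartile this held for 5 of 7 (Vpreb1, Igll1, Blnk, Ebf1 and Cd79a), beside 19.8% of all genes, with 0 members above both, beside 14.4%. For the mean of the null arrays, that subtraction lowers every difference from wild-type Flt3- cells by 0.14 and from wild-type Flt3+ cells by 0.07. The 2 null arrays shift unequally. Their lower quartiles were 4.65 and 4.39, beside 4.45 in wild-type Flt3+ and 4.37 in wild-type Flt3- cells. Null replicate 2 therefore rises slightly against wild-type Flt3+ cells. For Igll1, Ebf1, Cd79a and Cd79b the position relative to wild type therefore depends on the scale. For Vpreb1 and Blnk it was the same on both, and for Pax5 the null arrays lay between the wild-type arrays on both.

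The wild-type arrays compare cells sorted as Flt3+ with cells sorted as Flt3-, in which Flt3 RNA itself was at 10.07 and 9.18. With 1 array a group the differences have no replicate check. The 3 genes that act inside the cell, Blnk, Pax5 and Ebf1, had LSK/Flt3+ minus LSK/Flt3- differences of 0.98, 0.78 and 0.45. Of all genes, 0.948% were higher in LSK/Flt3+ cells by at least as much as Blnk, 1.57% by at least as much as Pax5 and 6.92% by at least as much as Ebf1. Igll1 differed by 0.27, and Vpreb1, Cd79a and Cd79b by -0.01, -0.06 and -0.13. The SD of this difference over all genes was 0.31.

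None of the 7 reached 2-fold between the wild-type fractions, beside 0.923% of all genes that were higher and 0.176% that were lower in LSK/Flt3+ cells by this much. The LSK/Flt3+ array held the highest value of 4 members (Igll1, Blnk, Ebf1 and Pax5), beside 19.7% of all genes, and the same 4 after subtraction of the lower quartile, beside 21.4%. Across all 4 arrays 5 members were above the lower quartile everywhere (Vpreb1, Igll1, Cd79b, Ebf1 and Pax5), beside 70.6% of all genes. A level near or below the lower quartile may be at or near background, which these values do not show directly, since no detection call is given.

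**Figure D3:**
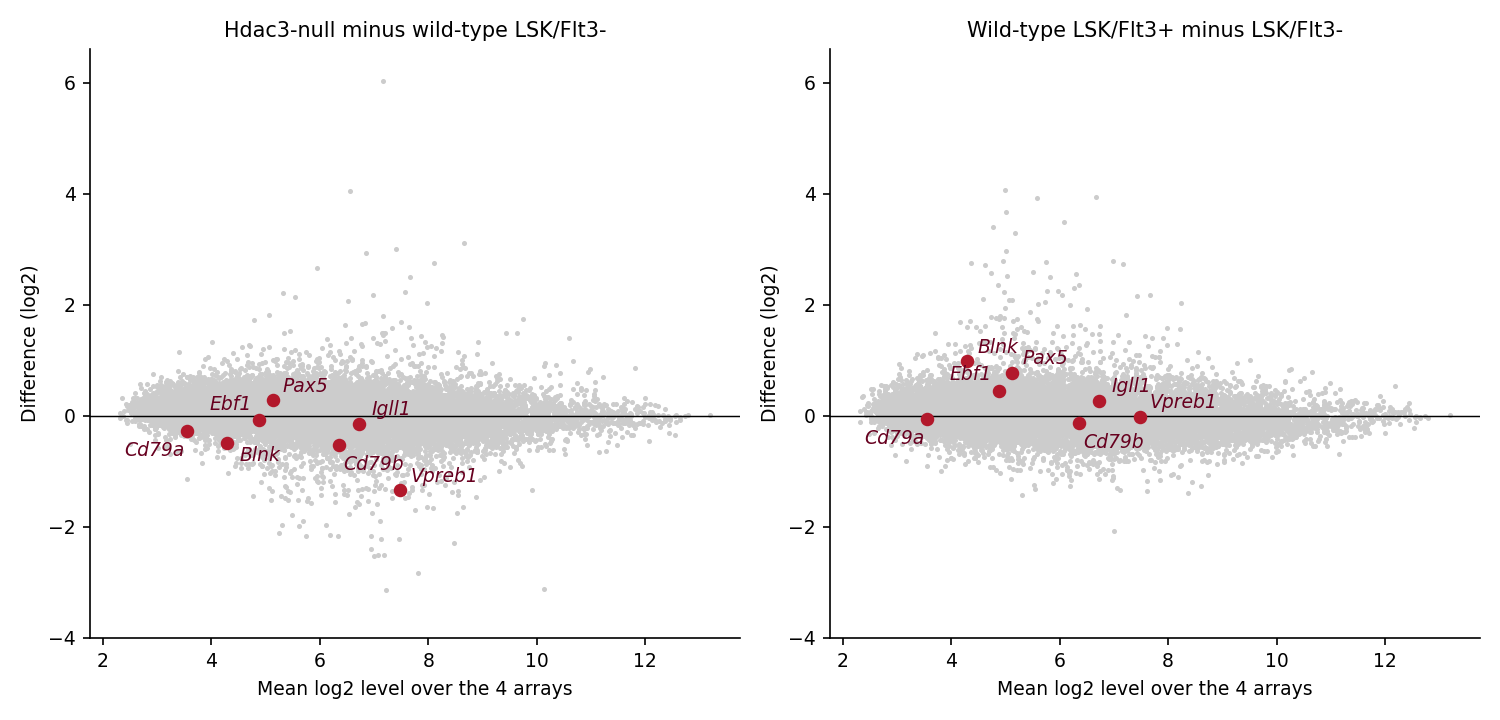
Each grey point is 1 of 19938 genes, with the mean log2 level over the 4 arrays on the horizontal axis and a log2 difference on the vertical axis, for null minus wild-type Flt3- cells (left) and wild-type Flt3+ minus LSK/Flt3- cells (right). The 7 genes are in red. Vpreb1 is at -1.34 on the left and -0.01 on the right, whereas Blnk is at -0.48 on the left and 0.98 on the right.

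Other genes of B-cell development were taken from lists written by function. Among 18 B-lineage transcription factor genes 0 passed limma in either comparison. Their median difference was -0.07 from wild-type Flt3- and -0.25 from wild-type Flt3+ cells, beside 0.09 and 0.05 over all genes. Against wild-type Flt3- cells 0 had an unadjusted p under 0.05. The members farthest from wild-type Flt3- cells were Runx1 (0.76), Foxo1 (-0.49) and Ikzf1 (-0.41), all with adjusted p = 1. Ikzf1 encodes Ikaros, needed for lymphoid fates, and Foxo1 encodes a partner of Ebf1 and E2A in pro-B cells. Tcf3, which encodes E2A, was at 6.72 and 7.0 on the null arrays, 6.84 in wild-type Flt3+ and 7.04 in wild-type Flt3- cells.

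Among 16 genes of pre-B receptor signalling 0 passed limma in either comparison, and 0 had an unadjusted p under 0.05 against wild-type Flt3- cells. Their median difference from these cells was 0.23, with 3 of 16 below 0, while that of the 7 members was -0.28. Over all genes the median was 0.09, with 34.9% below 0. Syk, the kinase that phosphorylates the Blnk protein, differed by 0.02 from wild-type Flt3- cells. Its level was between 7.32 and 7.69 on the 4 arrays. The farthest members were Pik3cd (0.68), a lipid kinase subunit, Lcp2 (0.46), the adaptor most like Blnk, and the adaptor gene Grb2 (0.43), all with adjusted p = 1. Lcp2 was at 8.70 and 8.52 on the null arrays, 8.30 in wild-type Flt3+ and 8.15 in wild-type Flt3- cells.

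Of 4 surrogate light chain and immunoglobulin genes measured, Vpreb2, Vpreb3, Ighm and Jchain, 0 passed limma in either comparison. From wild-type Flt3- cells Ighm differed by 0.30 and Jchain by -0.21. Of 14 B cell surface genes 0 passed limma in either comparison. At an unadjusted p under 0.05, 2 were lower than in wild-type Flt3- cells, beside 1.3% of all genes. These were Cd180, a Toll-like receptor homologue of B cells, at 6.81 and 7.28 on the null arrays, 9.25 in wild-type Flt3+ and 8.09 in wild-type Flt3- cells, and Cd72, an inhibitory coreceptor, at 6.75, 6.52, 8.09 and 7.62 in the same order. Cd180 differed by -1.05 from wild-type Flt3- (limma, adjusted p = 1) and by -2.21 from wild-type Flt3+ cells (limma, adjusted p = 0.0509, and from 0.0066 to 0.122 under the alternatives). For Cd72 the differences were -0.98 (adjusted p = 1) and -1.45 (adjusted p = 0.300). Against wild-type Flt3+ cells, 3 surface genes, 1 transcription factor gene, 1 signalling gene and 1 immunoglobulin gene were lower, and 1 signalling gene was higher, at an unadjusted p under 0.05. Of all genes, 2.31% were lower and 1.13% higher by this measure. The B cell gene Ms4a1, which encodes CD20, was below the lower quartile on all 4 arrays.

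Of 11 genes of V(D)J recombination and the IL-7 receptor pathway, 0 passed limma against wild-type Flt3- cells. There the unadjusted p was under 0.05 for 4 lower ones, beside 1.3% of all genes. Against wild-type Flt3+ cells 2 passed limma as lower, beside 0.281% of all genes. These were Dntt, the polymerase that adds bases at receptor gene junctions, at -4.95 (limma, adjusted p = 0.00275), and Il7r, the receptor that pro-B cells depend on, at -2.13 (limma, adjusted p = 0.0231). Dntt was at 5.83 and 4.56 on the null arrays, 10.14 in wild-type Flt3+ and 8.33 in wild-type Flt3- cells, and its difference from the last was -3.14 (limma, adjusted p = 0.148, or 0.0201 with robust estimation of the spread). Rag1, a chain of the recombinase, was at 4.41 and 4.33 on the null arrays, 6.01 in wild-type Flt3+ and 5.05 in wild-type Flt3- cells. Il7r was at 4.39, 4.03, 6.34 and 4.96 in the same order. For both genes, as for Blnk, the wild-type Flt3+ array was the highest and both null arrays the lowest, whereas Vpreb1 was level between the wild-type arrays. On null arrays 1 and 2, Rag1 lay at -0.24 and -0.06 from the lower quartile and Il7r at -0.26 and -0.36. Their null levels may therefore be background, as for Blnk, and their differences are those of the measured values only. The DNA end-binding gene Xrcc5 was at -1.17 from wild-type Flt3- cells (limma, adjusted p = 1).

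**Figure D4:**
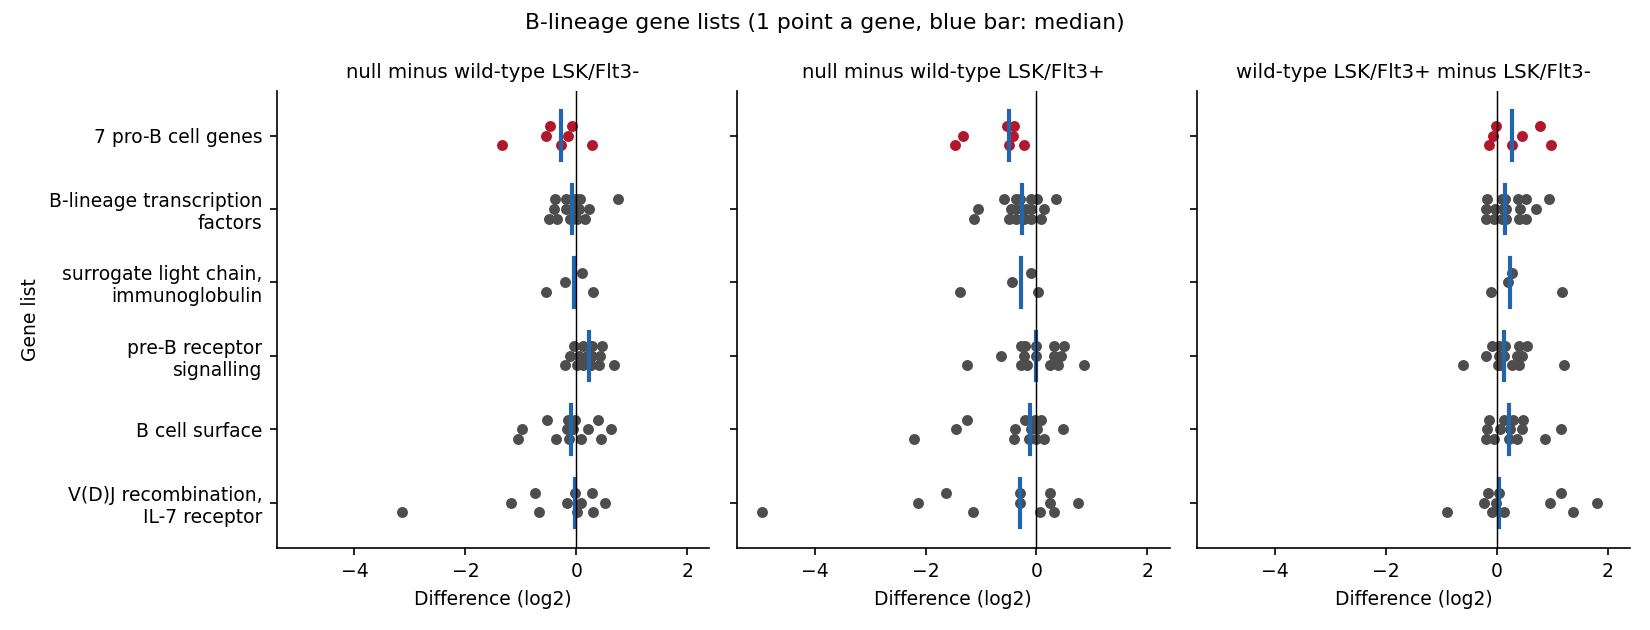
Log2 differences (horizontal axis) of the 7 pro-B cell genes (red) and of 5 lists of related genes (grey), 1 point a gene, with the list median as a blue bar, for null minus wild-type Flt3- (left), null minus wild-type Flt3+ (middle) and wild-type Flt3+ minus LSK/Flt3- cells (right). The red points have medians of -0.28, -0.50 and 0.27 from left to right, and the lowest point on the left and in the middle is Dntt.

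Markers of other cell types were read beside these results. The mean level of 12 granulocyte and monocyte markers was 7.88 and 8.19 on the null arrays, 7.59 in wild-type Flt3+ and 7.34 in wild-type Flt3- cells, so the arrays low in Vpreb1 had the higher means for this list. Against wild-type Flt3- cells 5 of the 12 were higher and 2 lower at an unadjusted p under 0.05, beside 1.1% and 1.3% of all genes. The lower ones, chosen after their values were seen, were the neutrophil genes S100a8 (-1.36) and S100a9 (-1.05). One of the 12, Ms4a3, passed limma as higher than in wild-type Flt3- and in wild-type Flt3+ cells, beside 0.0201% and 0.0351% of all genes. This gene of granulocyte-monocyte progenitors rose by 3.11 (limma, adjusted p = 0.0321) and 2.80 (limma, adjusted p = 0.00931) in the same order. The first of these calls was lost after quantile normalization (adjusted p = 0.326), cyclic loess (0.108) or median centring (0.0853), and with every probe set as its own feature (0.0539). Csf1r, the receptor of monocytes and macrophages, fell by 2.34 against wild-type Flt3+ cells (limma, adjusted p = 0.0250), a call lost after quantile normalization (adjusted p = 0.0742).

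The mean level of 7 plasmacytoid dendritic cell markers, a cell type that can transcribe early lymphoid genes, was 5.70 and 5.41 on the null arrays, 5.98 in wild-type Flt3+ and 5.76 in wild-type Flt3- cells. Among them Bst2 differed by -1.06 from wild-type Flt3- cells (limma, adjusted p = 1), and Siglech, a defining marker, was at 5.25, 4.92, 5.67 and 5.31 in the order above. At an unadjusted p under 0.05, 1 of the 7 was lower than in wild-type Flt3- cells, beside 1.3% of all genes. Against wild-type Flt3+ cells 3 were lower, beside 2.31% of all genes, and the list median was -0.58, beside 0.05. None of the 7 was higher by this measure, and none passed limma. The 8 mature B and plasma cell markers had means of 5.46 and 5.15 on the null arrays, 5.81 in wild-type Flt3+ and 5.25 in wild-type Flt3- cells. One of these passed limma as lower than in wild-type Flt3+ cells, beside 0.281% of all genes. It was H2-Aa, an MHC class II chain that dendritic cells also make, at -3.68 (limma, adjusted p = 0.00931). This call was lost after quantile normalization (adjusted p = 0.0576). For 12 T and NK cell markers, of which 0 passed limma, the means were 5.39, 5.27, 5.08 and 5.05 in the same order. At an unadjusted p under 0.05, 1 was lower and 2 higher than in wild-type Flt3+ cells, beside 2.31% and 1.13% of all genes.

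The 7 erythroid markers averaged 6.51 and 8.03 on null arrays 1 and 2, 7.68 in wild-type Flt3+ and 8.19 in wild-type Flt3- cells. Null replicate 1 thus had the lowest mean for this list. Of the null arrays it was the lower for Vpreb1 and Cd79b, but the higher for Igll1, Blnk, Ebf1, Pax5 and Cd79a. None of the 7 passed limma. At an unadjusted p under 0.05, 3 were lower than in wild-type Flt3- cells and 1 was higher, beside 1.3% and 1.1% of all genes. The lower ones were Car1 (-3.13), Rhag (-2.17) and Ermap (-1.64). Car1 was at 6.44 on null replicate 1 and 10.92 on null replicate 2. The higher one, Car2, chosen after its values were seen, was at 10.73 and 11.10 on the null arrays, above both wild-type arrays, with differences of 0.92 from wild-type Flt3- and 1.30 from wild-type Flt3+ cells (limma, adjusted p = 1 and 0.337). Of the sort genes, Flt3 itself stood at 7.84 and 7.02 on the null arrays, 10.07 in wild-type Flt3+ and 9.18 in wild-type Flt3- cells. The difference of Flt3 was -1.75 from wild-type Flt3- (limma, adjusted p = 0.692) and -2.64 from wild-type Flt3+ cells (limma, adjusted p = 0.0317). The second value did not pass after quantile normalization (adjusted p = 0.134) or cyclic loess (0.0704), among genes with a mean level of at least 6 (0.0772) or with every probe set as its own feature (0.06). The part of these other cell types, and of Flt3 level within the sorted cells, in the Vpreb1 and Blnk differences was not tested.

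For the 2 members with the widest range, the genes with the most similar profile were sought by the root mean square difference over the 4 arrays, each profile centred on its own mean. For Vpreb1 (range 1.56) they were Jun (0.0144), Mgst3 (0.126), Cox6b2 (0.135), Tns1 (0.156) and Cd96 (0.162). Jun, an immediate early transcription factor gene, was at 7.68 and 8.08 on the null arrays, 9.19 in wild-type Flt3+ and 9.23 in wild-type Flt3- cells. For Blnk (range 1.58) they were Sh2d1b1 (0.0339), Nfil3 (0.0605), Ccrl2 (0.0638), Gpr65 (0.0676) and Zfp36 (0.0772). Nfil3, a transcription factor gene of innate lymphoid development, was at 6.11 and 5.90 on the null arrays, 7.49 in wild-type Flt3+ and 6.63 in wild-type Flt3- cells. With 4 arrays many genes can share a profile, and these lists are a description of likeness only.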

How the data were processed

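RNA was purified with a PerfectPure kit and biotin-labelled for Affymetrix arrays, per the labels' protocols. The authors deposited log2 values for each probe set, and RMA and affy 1.23 are named in the submitters' processing notes. The table held 35556 probe sets. The platform annotation gave 1 gene for 21789, several for 1621 and none for 12146, and each of 19938 genes was represented by its probe set of highest mean level. No genome build of the arrays is given in the sources used.

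One limma model (version 3.58.1, R 4.3.3) with 3 groups and a mean-dependent prior was fitted to all 4 arrays. Its 1 residual degree of freedom comes from the null pair, so the lone wild-type arrays are taken to have the same variance as the null arrays. Tests were two-sided, adjusted by Benjamini-Hochberg over all genes, with a threshold of 0.05, and the median SE of a difference was 0.34. The wild-type arrays were compared without a test.

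The members and lists were chosen with earlier results of these data known. Named genes include the 7 members, list genes past the test, and up to 3 of each list farthest from wild-type Flt3- cells. Further list genes were named for an unadjusted p under 0.05, a choice made after their values were seen. The 5 nearest profiles of the 2 members with the widest range were also named, predicted genes passed over. Tcf3, Syk, Rag1, Ms4a1, Siglech and Ly6g were named as defining genes. Listed genes with a shared or no listed probe set were not analysed here.

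Alternatives changed the probe set rule, the prior, the normalization and a filter on dim genes, or left out a null replicate. For list genes they were added after seeing the data.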

Additional observations from a re-analysis of the deposited data

How the results depend on the processing

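The number of pro-B genes called against wild-type Flt3+ cells was 1, Blnk, rather than 0 with robust estimation of the prior, quantile normalization, cyclic loess or centring on array medians, and 0 under the other tested alternatives. Against wild-type Flt3- cells it was 0 under every tested alternative. Genes called against wild-type Flt3- cells, 0 lower and 4 higher as reported, were 13 lower and 12 higher with robust estimation and 1 lower and 2 higher with every probe set as its own feature. The higher count was 0 after quantile normalization and 2 after cyclic loess or median centring. Against wild-type Flt3+ cells, 56 lower and 7 higher became 99 and 15 with robust estimation, 89 and 10 with median centring, and 17 and 5 among genes with a mean level of at least 6, a filter that leaves 3 members, all above the lower quartile. Without 1 null replicate in turn there is no test, and the difference from wild-type Flt3- cells ranged from -0.30 to 0.01 for Igll1, from -0.29 to 0.12 for Ebf1 and from -1.56 to -1.13 for Vpreb1. The adjusted p of Vpreb1 ranged from 0.501 to 1 against wild-type Flt3- and from 0.247 to 0.622 against wild-type Flt3+ cells, and that of Blnk against LSK/Flt3+ cells from 0.0116 to 0.202. No other member's difference changed sign or call. Some list genes were also run under these alternatives, a choice made after seeing the data. Against wild-type Flt3+ cells, genes not passing as reported passed with median centring for Jchain, Bank1, Rag1 and Rag2 (adjusted p of 0.0179, 0.0335, 0.0119 and 0.0455). With cyclic loess this held for Jchain and Rag1, with robust estimation for Rag1 and Cd180, and with all probe sets averaged or no trend in the prior for Cd180. Dntt and Il7r passed against wild-type Flt3+ cells under every alternative that tested them. The cause of these changes was not tested. On both null arrays Jchain, Bank1, Rag1, Rag2 and Il7r lay below the lower quartile, so their levels there may be background. No paired analysis was possible because the labels number only the null replicates, and each wild-type group has 1 array.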
